A study of Mus musculus with 63 samples.

Results

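The genes described are the mouse cytosolic ribosomal protein genes, read in small intestinal organoids and in freshly isolated intestinal epithelial cells (IECs) after loss of the Mediator kinases CDK8 and CDK19. Members were protein_coding rows of the count tables whose names follow the Rpl, Rps or Rplp pattern, together with Rpsa, without names that mark pseudogenes. The rule took 83 of 54752 rows, of which 21949 were protein_coding. The core held 77 genes, with 31 of the small (40S) subunit and 46 of the large (60S) subunit. The remaining 6 were paralogs kept apart: Rpl3l, Rpl7l1, Rpl10l, Rpl22l1, Rpl39l and Rps27l.

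A cytosolic ribosome carries each of its proteins, mostly in one copy, on a scaffold of ribosomal RNA, so growing cells make these proteins in near-matched amounts. Their mRNAs are short, abundant and mostly begin with a run of pyrimidines (a 5′ terminal oligopyrimidine tract), through which mTOR signalling sets their translation. Mammalian genomes hold many processed pseudogenes of these genes, which are intronless copies of the mRNA scattered over the chromosomes. In the intestinal crypt, stem and transit-amplifying cells are the dividing cells and have high demand for ribosomes, and MYC, a target of Wnt signalling, is a known activator of ribosome biogenesis.

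In all, 57 RNA-seq libraries in 19 groups of 3 were used, all labelled as strain C57BL/6. The time course followed organoids of genotype VillinCreERT2 Cdk8 fl/fl Cdk19-/- that were harvested on day 3, 5, 7 or 10 of the experiment and had received 100 nM 4-hydroxytamoxifen (4-OHT), which activates Cre in villin-expressing epithelium and deletes Cdk8, or the vehicle ethanol (EtOH). Its EtOH controls therefore also lacked Cdk19. The same genotype was grown in medium conditioned by Wnt3-secreting cells (Wnt3-CM) and read at day 10 after EtOH or 4-OHT. A further line, VillinCreERT2 Cdk8 fl/fl with one Cdk19 null allele and one allele coding for kinase-dead CDK19 (D173A), was read at day 7 after EtOH or 4-OHT. In a comparison of 5 lines at day 7, all received 4-OHT: VillinCreERT2, C57BL/6 (no Cre), VillinCreERT2 Cdk8 fl/fl (CDK8 iIEC-KO), Cdk8 fl/fl Cdk19-/- without Cre (Cdk19-/-) and VillinCreERT2 Cdk8 fl/fl Cdk19-/- (CDK8 iIEC-KO/Cdk19-/-). IECs came from VillinCreERT2 and VillinCreERT2 Cdk8 fl/fl Cdk19-/- mice 14 days after the last of their daily injections of 80 mg/kg tamoxifen, and the labels used here give no age. Each organoid group stands for a single line, so that line and genotype cannot be told apart between lines, and within a line the exposure to 4-OHT and the deletion of Cdk8 cannot be told apart. The labels do not say whether organoid replicates were separate cultures, so that p-values then measure the spread between these libraries only.

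The genotypes were taken from the labels, since the whole-gene counts of the targeted genes did not check them. Levels are given as CPM, the count of a gene scaled to a library of standard size, with TMM normalization within each table. Levels from different tables were normalized separately. Cdk8 was 47.7 to 50.2 CPM after EtOH and 42.8 to 47.2 CPM after 4-OHT at day 7 of the time course, and 63.3 to 70.6 against 63.7 to 69.4 CPM in the D173A line. In the 5 lines, Cdk8 was 71.9 to 80.8 CPM in VillinCreERT2, 78.0 to 83.1 CPM in CDK8 iIEC-KO and 65.1 to 67.2 CPM in those that also lacked Cdk19. Cdk19 was 24.7 to 26.0 CPM in Cdk19-/- and 28.7 to 34.5 CPM in C57BL/6 organoids. Such counts add up all exons of a gene, also those outside a deleted part, and every group below is called by its label. Libraries held 15485959 to 32909565 counts (median 19374952). Epithelial markers were detected in every group. Of 12 immune and 8 mesenchymal markers, at most 2 of each passed the count filter in the organoid fits, and in the within-line groups Cd8a, Gzma and Gzmb were at 0 in every library. The immune markers summed to at most 4.55 CPM there, and the mesenchymal ones to at most 11.4 CPM other than 42.8 CPM in 1 EtOH library of day 7. All markers passed in the IECs, in which the summed immune markers were 1773 to 3264 CPM in VillinCreERT2 and 2091 to 3513 CPM in CDK8 iIEC-KO/Cdk19-/- mice. The mesenchymal ones were 12.9, 56.1 and 895 CPM in the former and 464, 608 and 983 CPM in the latter.

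The following coding sequences are shown because they decide what a ribosomal protein count can mean: each pair is the first 60 coding bases of a gene and of a processed pseudogene (GRCm38, GENCODE vM21), 5′ to 3′, with a differing base in capitals.
Rps16: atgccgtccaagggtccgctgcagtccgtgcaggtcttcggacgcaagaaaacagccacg
Rps16-ps2 (chr5:129128077-129128517, minus strand): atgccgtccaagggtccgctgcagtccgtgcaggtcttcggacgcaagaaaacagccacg
Rps26: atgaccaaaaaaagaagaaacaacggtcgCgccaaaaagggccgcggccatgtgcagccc
Rps26-ps1 (chr8:107439131-107439579, minus strand): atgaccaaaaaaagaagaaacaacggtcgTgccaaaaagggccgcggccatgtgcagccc
Rps6: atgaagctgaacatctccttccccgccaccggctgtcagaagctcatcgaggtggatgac
Rps6-ps4 (chr2:75191073-75191822, minus strand): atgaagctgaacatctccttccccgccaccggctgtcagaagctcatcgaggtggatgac

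The Rps16 and Rps6 stretches are identical to their copies, and Rps26 differs by the substitution C30T, counted from the first coding base. A read whose bases are all shared with a copy cannot be placed by its letters. Of the 100-base windows of the transcript, 33.9% were found elsewhere for Rps16, 24.1% for Rps26 and 83.6% for Rps6. Reads were found on both rows of each pair. Over the 24 time course libraries, Rps16 had a mean of 755 counts and Rps16-ps2 had 14586, Rps26 had 21543 and Rps26-ps1 had 19901, and Rps6 had 248 and Rps6-ps4 had 16869. Rows that share at least 20% of their 31-base words with a core gene numbered 699 and held 0.434 to 2.49% of the counts of a library, beside 0.588 to 3.31% (median 2.07%) on the core genes themselves. In 39 of 77 core genes, the copies held more counts than the gene in the time course. The genes with at most 20% of their 100-base windows found elsewhere (16 genes, Rplp0, Rpl4, Rps3 and Rpl8 among them) had a median of 10534 counts, against 209 counts for the 22 genes with at least 60% of their windows shared. Across the 77 genes, which are not independent replicates, the rank correlation of count with the share of windows was -0.64. Exons of other genes also overlap some members: 66.2% of the exon length of Rpl35 is shared with Wdr38, 62.3% of Rpl23a with Tlcd1 and 26.7% of Rpl5 with Fam69a, each on the opposite strand, and 47.0% of Rpl24 with Gm28037 and 35.4% of Rpl13a with Gm45713 on the same strand. Whether the counting used strand is not given in the sources used here, and reads of such partners cannot be told apart. A low count on a member is therefore no measure of a low mRNA level, and no levels are compared between genes below. Most counts of changed genes are therefore also given after adding the copies' reads to the gene, or for the 16 low-sharing genes alone.

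**Figure D1:**
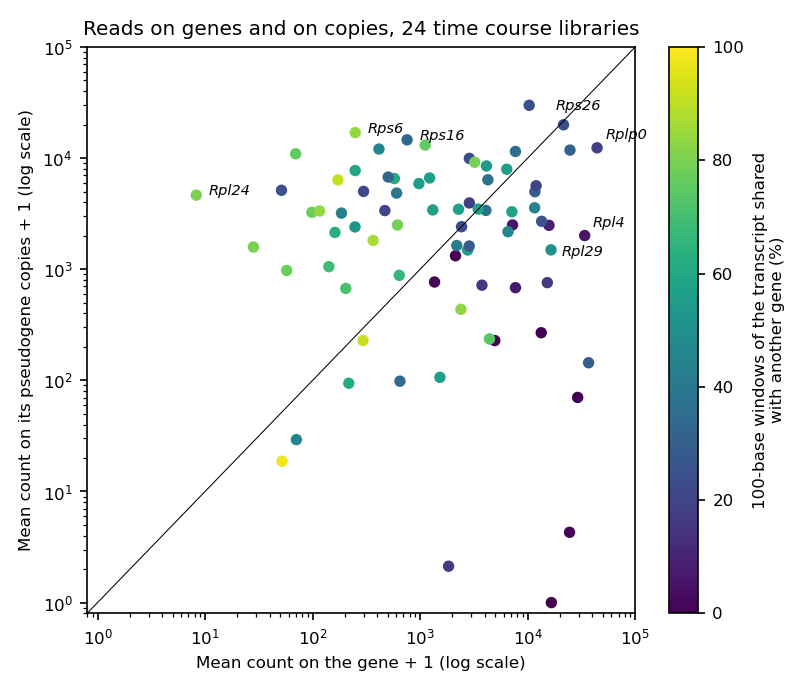
Mean count per library on each core ribosomal protein gene (x axis, count + 1, log scale) against the mean count on all rows that share its sequence (y axis, count + 1, log scale) over the 24 time course libraries; colour gives the percent of the gene's 100-base windows found elsewhere. Genes above the diagonal, 39 of 77, had more counts on their copies than on themselves.

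The study's own assay for a ribosomal protein mRNA read Rplp0, whose product is the base of the stalk that recruits elongation factors to the large subunit, and whose mRNA is widely used as a reference for other genes. Its oligonucleotides are shown because Rplp0 is also one of the members that moved.
MM_Rplp_Fw: cgcttgtacccattgatgatg
MM_Rplp_Rev: ttataaccctgaagtgctcgac
MM_Rplp_Probe: aggccctgcactctcgctt
All 3 matched transcript Rplp0-201, MM_Rplp_Rev at bases 715 to 736, MM_Rplp_Probe at 747 to 765 and MM_Rplp_Fw, in antisense, at 841 to 861. The gene lies at chr5:115559467-115563727 on the plus strand. All 3 also matched the pseudogene Gm6278 (chr16:85644252-85645023, plus strand).

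Other members on which results turn lie, on GRCm38, as follows: Rpl4 at chr9:64173375-64178666 (plus strand), Rpl14 at chr9:120571444-120574654 (plus strand), Rpl29 at chr9:106429454-106431568 (plus strand), Rps6 at chr4:86854660-86857412 (minus strand) and Rpl5 at chr5:107900502-107909005 (plus strand).

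One IEC library stood apart in members. In replicate 1 of the CDK8 iIEC-KO/Cdk19-/- mice, 8 genes that reached at least 30 CPM in each of the other 5 IEC libraries fell under a 5th of their lowest value there, and 7 of the 8 lie on chromosome 17. Core members made up 3 of them: Rps2 (149 counts against 4562 to 6180), Rps18 (94 against 649 to 951) and Rpl29 (42 against 1564 to 3622). In the same library the copies Rps2-ps10 (2490 counts against 483 to 653 elsewhere), Rps18-ps3 (68 against 19 to 32) and, for Rpl29, Gm8210 (243 against 10 to 134) were high. The copies Rps2-ps6 (5 against 59 to 95) and, for Rpl29, Gm10709 (3 against 120 to 277) were low with their genes. Replicate 2 of these mice stood apart in Xist, an RNA of the inactive X chromosome of female cells, with 1.11 CPM against 113 to 169 CPM in the other 5 libraries, and the labels used here give no sex. The IEC results are given below with and without each of them.

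The summed share of the core genes in a library was lower after 4-OHT than after EtOH at each time of the time course. It was 3.17% ± 0.125 after EtOH and 2.56% ± 0.0544 after 4-OHT (SD, n = 3 each) at day 3, 2.53% ± 0.182 and 2.01% ± 0.0515 at day 5, and 2.27% ± 0.189 and 1.80% ± 0.0817 at day 7. The groups did not overlap at these times. At day 10, the share was 2.61% ± 0.140 and 2.29% ± 0.206, and the highest 4-OHT library (2.49%) was above the lowest EtOH library (2.45%). In the D173A line it was 1.71% ± 0.0124 after EtOH and 1.18% ± 0.0622 after 4-OHT, without overlap. In Wnt3-CM it was 2.24% ± 0.111 and 2.05% ± 0.120, also without overlap.

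**Figure D2:**
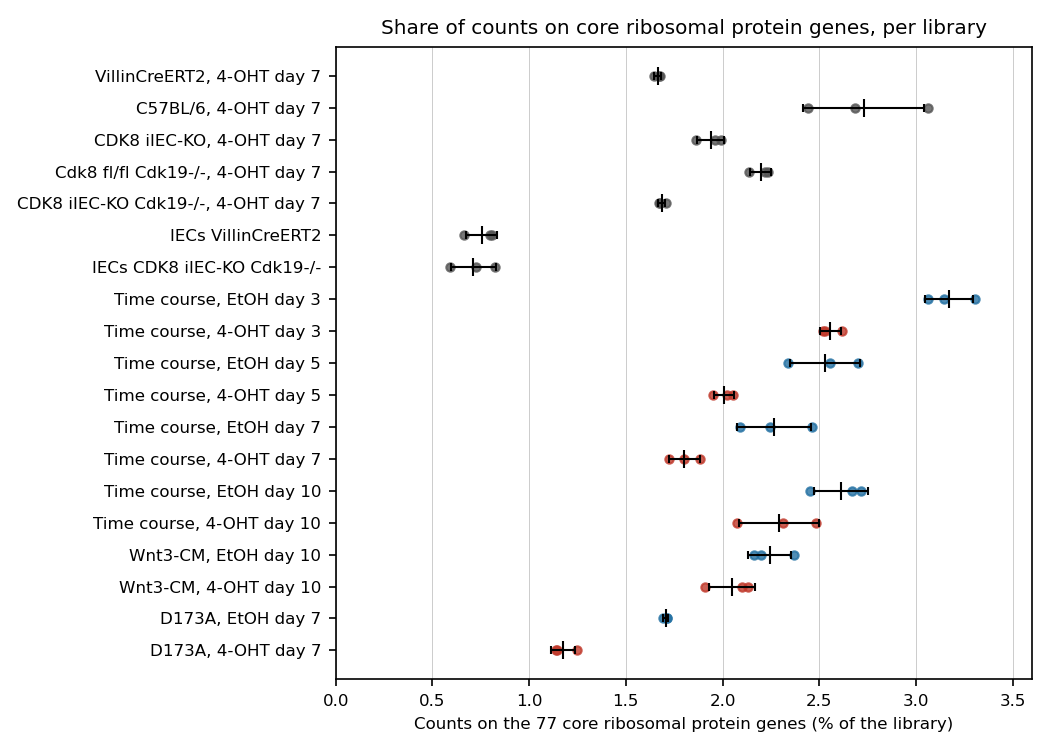
Percent of all counts of a library on the 77 core ribosomal protein genes (x axis) in the 19 groups (y axis). Points are libraries and bars mark the mean ± SD of 3. The 4-OHT libraries lie to the left of the EtOH libraries of the same day at days 3, 5 and 7, in Wnt3-CM and in the D173A line. IEC libraries have the lowest values of all, between 0.588 and 0.821%.

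Single genes were tested with the quasi-likelihood F test of edgeR on the whole table, with Benjamini-Hochberg adjustment over all genes tested, and were called at an adjusted p under 0.05, or under both this and a fold over 1.5. In bulk samples, fewer cells of a type and less RNA per cell cannot be told apart, and all changes are relative to the rest of the library.

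At day 3 of the time course, most core ribosomal protein genes were lower after 4-OHT in the Cdk19-/- background, mostly by small amounts. Their log2 fold changes ran from -0.70 to 0.31. Of 77 core genes, 53 were lower and 0 were higher at an adjusted p under 0.05, where 18.8% of all genes tested were lower. The median log2 fold change was -0.38, against medians between -0.02 and 0.03 over all genes in every comparison. It was -0.42 for the small and -0.35 for the large subunit. Only 2 core genes, both lower, also passed the fold cutoff, where 5.95% of all genes did so downward and 6.42% upward. In the 16 low-sharing genes, 15 were lower with a median of -0.45, and with the copies' reads added 72 of 77 core genes were lower with a median of -0.42.

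The stalk proteins were among those that fell. Rplp0 was 2861, 2582 and 2487 CPM after EtOH and 1799, 1845 and 1829 CPM after 4-OHT, so that the groups lay far apart, with a log2 fold change of -0.54 (SE 0.07, edgeR adjusted p = 5.04e-07). Rplp1 and Rplp2, the acidic proteins that pair on the stalk, changed by -0.38 (SE 0.11) and -0.46 (SE 0.08). The changes past both cutoffs were in Rpl21 (327, 339 and 334 to 207, 209 and 200 CPM; -0.70, SE 0.11, edgeR adjusted p = 2.15e-05) and Rps28, which lies by the mRNA exit of the small subunit (178, 180 and 179 to 117, 122 and 112 CPM; -0.61, SE 0.08, edgeR adjusted p = 1.16e-06). Neither gene had overlapping groups. The number past both cutoffs was 5 without EtOH replicate 3, 4 without 4-OHT replicate 1 and 1 without 4-OHT replicate 3.

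Rpl3, which lines the peptidyl transferase centre, fell by 0.43 on the log2 scale (SE 0.06), and Rpsa, a 40S protein also known as the laminin receptor, fell by 0.46 (SE 0.08). Rps4x (-0.43), Rpl22 (-0.36), Rpl39 (-0.39), a small protein of the exit tunnel, and Rpl7 (-0.27) also passed the test. Rpl5 and Rpl11, which bind 5S rRNA and, outside the ribosome, MDM2, did not: their log2 fold changes were 0.07 (edgeR adjusted p = 0.731) and -0.25 (0.119). Rps6, the substrate of S6 kinases, stood at -0.22 (edgeR adjusted p = 0.0893), Rpl10 at -0.08, Rps27a, made as a fusion with ubiquitin, at 0.11, Rps27 at -0.01 and Rpl36a at -0.05, none past the test. Cell type markers moved at the same time: 9 of 10 enterocyte markers were lower, with a summed level of 6964 to 7592 CPM after EtOH and 3092 to 3627 CPM after 4-OHT, and 4 of 10 proliferation markers were higher (summed 1033 to 1105 against 1230 to 1305 CPM). Stem cell markers summed to 1908 to 1924 CPM after EtOH and 2318 to 2394 CPM after 4-OHT (3 of 6 higher, 1 lower), and epithelial markers to 9249 to 9883 and 8267 to 8567 CPM (5 of 9 lower, 1 higher), both without overlap. Their part in the result was not tested.

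At day 5, 55 of 77 core genes were lower (19.9% of all genes) and 2 were higher (18.4% of all genes), and the median log2 fold change was -0.36. The groups did not overlap in 58 genes that were lower, against 23% of all genes. In the low-sharing set all 16 genes were lower, and with the copies' reads added 72 core genes were lower and 1 was higher. Rpl15 (32.1, 33.0 and 34.6 CPM to 21.5, 21.1 and 22.1 CPM; -0.63, SE 0.08, edgeR adjusted p = 5.46e-07) was among the 2 genes past both cutoffs, where 4.62% of all genes did so downward and 8.58% upward. That number was 4 without 4-OHT replicate 2, 5 without EtOH replicate 2 and 6 without 4-OHT replicate 1. Rplp0 fell by 0.35, Rplp2 by 0.48, Rpsa by 0.47, Rpl3 by 0.34 and Rps6 by 0.27 on the log2 scale. Rpl5 (-0.06), Rpl11 (-0.10) and Rps27a (-0.36) did not pass the test. The 2 genes that were higher were Rpl10, which joins the large subunit late in its assembly (12.5, 10.7 and 12.3 to 17.3, 14.7 and 15.0 CPM; 0.41, edgeR adjusted p = 0.0231), and Rps10 (0.50, edgeR adjusted p = 0.0267), a core gene named after its values were seen. All 10 proliferation markers (summed 1112 to 1341 against 666 to 860 CPM), all 6 stem cell markers (1659 to 2309 against 1037 to 1193 CPM) and 6 of 7 Paneth cell markers (5314 to 6577 against 2968 to 3411 CPM) were lower in the same libraries. The share of counts on the mitochondrial genome was 2.51 to 2.80% after EtOH and 4.59 to 5.57% after 4-OHT, without overlap. The part of either in the result was not tested.

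At day 7, about as many core genes were lower as before. A total of 56 were lower and 0 higher (22.5% of all genes lower), the median log2 fold change was -0.30, and 14 were lower past both cutoffs (9.25% of all genes). Rpl23a (1.51, 1.29 and 1.52 to 0.324, 0.721 and 0.901 CPM; -1.14, SE 0.33), Rpl36a (5.85, 6.08 and 4.57 to 2.48, 3.09 and 3.45 CPM; -0.87, SE 0.17) and Rpl10a (69.3, 82.9 and 59.9 to 46.0, 29.0 and 41.7 CPM; -0.86, SE 0.15) had the largest decreases, without overlap of the groups. These are genes with much shared sequence. With the copies' reads added, Rpl23a changed by -0.26, Rpl36a by -0.24 and Rpl10a by -0.26, 61 core genes were lower and 0 passed both cutoffs. In the low-sharing set 14 of 16 were lower with a median of -0.26.

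Rps6 and Rpl5, not called at day 3, were called at day 7 (Rps6 from day 5 on), and the difference between days 3 and 7 was not tested. Rps6 was 13.4, 14.6 and 14.0 CPM after EtOH and 9.17, 8.70 and 6.79 CPM after 4-OHT at day 7 (-0.77, SE 0.10, edgeR adjusted p = 6.22e-07). Rpl5 was 8.57, 8.76 and 8.43 CPM against 5.28, 4.89 and 5.25 CPM (-0.74, SE 0.14, edgeR adjusted p = 6.01e-05), and Rpl11 changed by -0.39 (edgeR adjusted p = 0.0152). In none of these did the groups overlap. In the time course the copies held 98.6% of the reads of Rps6 with its copies, 97.4% for Rpl5 and 96.9% for Rpl11. These values therefore rest on few of the reads. Rplp0 stood at -0.20 (1898, 1731 and 2032 against 1592, 1650 and 1673 CPM; edgeR adjusted p = 0.0178), Rplp2 at -0.23 (edgeR adjusted p = 0.0255) and Rplp1 at -0.24 (edgeR adjusted p = 0.0613, not past the test). Rps27a changed by -0.73, Rpl3 by -0.43, Rpsa by -0.27, Rps4x by -0.25 and Rpl7 by -0.16, all past the test, while Rpl10 (-0.22), Rpl22 (-0.17), Rpl39 (-0.17) and Rps27 (-0.12) were not. Proliferation markers were again lower in 10 of 10 (summed 1189 to 1387 against 579 to 889 CPM), stem cell markers in 6 of 6 (1976 to 2373 against 700.3 to 1080 CPM) and Paneth cell markers in 6 of 7 (5239 to 6315 against 2527 to 2641 CPM). Epithelial markers were higher in 7 of 9 (7763 to 8188 against 9621 to 10154 CPM) and enterocyte markers in 3 of 10 (9508 to 11848 against 12506 to 14642 CPM), also without overlap of the sums. Their part was not tested.

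At day 10, fewer core genes were called. Of 77, 20 were lower, near the 21.2% of all genes that were, and 2 higher (23.1% of all genes), and 0 passed both cutoffs (6.92% of all genes lower, 8.86% higher). The median was -0.10, and 3 of 16 low-sharing genes were lower. Adding the copies' reads gave 28 core genes lower and 0 higher. Without 4-OHT replicate 2 the median was -0.17, and without EtOH replicate 1 it was -0.15. Without EtOH replicate 3, 13 core genes were called in place of 22. Rpl4, whose long loop reaches the exit tunnel, was 1867, 1964 and 1920 CPM after EtOH and 1364, 1481 and 1490 CPM after 4-OHT (-0.41, SE 0.06, edgeR adjusted p = 3.56e-06). Rpl3 was 180, 184 and 178 against 122, 143 and 142 CPM (-0.41, SE 0.06, edgeR adjusted p = 5.54e-06). The groups lay apart in both. Rps23, of the decoding centre, changed by -0.44 (edgeR adjusted p = 0.0284), by -0.35 and no longer past the test with the copies' reads. Rps6 (-0.31), Rpl5 (-0.32), Rpsa (-0.21), Rps4x (-0.29) and Rpl22 (-0.20) passed the test. Rplp0 (3111, 3359 and 3343 against 2690, 3211 and 2906 CPM; -0.16, edgeR adjusted p = 0.0709), Rplp1 (0.11) and Rplp2 (-0.02) did not, and their groups overlapped. Rpl37a (14.7, 19.4 and 20.5 to 21.7, 26.2 and 22.2 CPM; 0.36, edgeR adjusted p = 0.00865) and Rpl19 (27.3, 30.04 and 27.1 to 32.1, 36.4 and 33.2 CPM; 0.27, edgeR adjusted p = 0.0161) were higher. With the copies' reads these values were 0.07 and -0.04. Proliferation markers were lower in 7 of 10 (summed 1489 to 1533 against 923 to 989 CPM), stem cell markers in 6 of 6 (3113 to 3360 against 1603 to 1818 CPM) and Paneth cell markers in 6 of 7 (8410 to 8615 against 2530 to 2906 CPM) at day 10, and 5 of 10 enterocyte markers (7701 to 9276 against 9462 to 11301 CPM) and 5 of 9 epithelial markers (8505 to 8870.0 against 9563 to 10531 CPM; 2 of 9 lower) were higher. The mitochondrial share was 1.496 to 1.601% after EtOH and 1.63 to 1.96% after 4-OHT. The part of either was not tested.

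**Figure D3:**
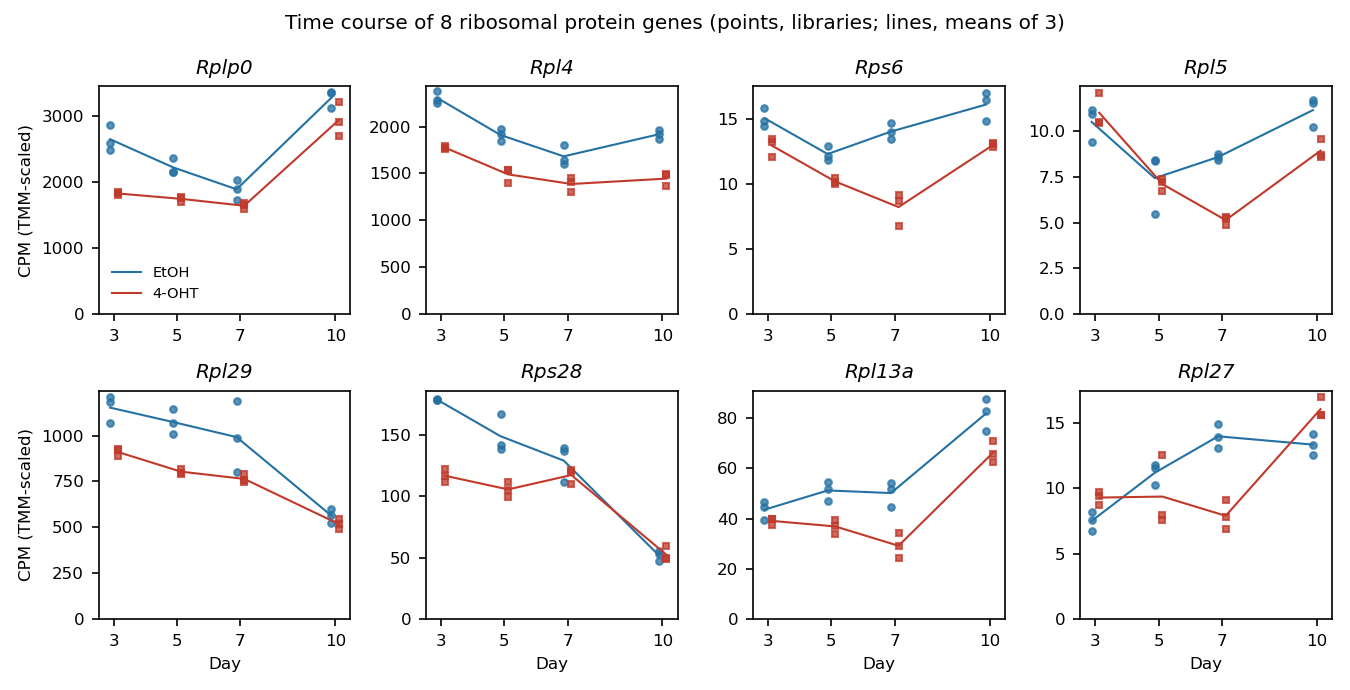
CPM (y axis) by day (x axis: 3, 5, 7 and 10) of Rplp0, Rpl4, Rps6, Rpl5, Rpl29, Rps28, Rpl13a and Rpl27 after EtOH or 4-OHT; points are libraries and lines join the means of 3. Rplp0 is far apart at day 3 and close at day 10, Rpl5 overlaps between the groups at days 3 and 5 and not at days 7 and 10, and Rps6 and Rpl4 do not overlap at any of the 4 times.

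The response at day 10 was smaller than at day 3 by a test of the difference itself. In the fit of all 24 libraries, the 4-OHT response was higher (less negative) at day 10 in 34 of 77 core genes and lower in 0, where 23.7% of all genes were higher. The median difference was 0.25, and the count was 43 with the copies' reads. The P stalk took part as a whole: the difference was 0.38 for Rplp0 (SE 0.10, edgeR adjusted p = 0.00227), 0.49 for Rplp1 and 0.43 for Rplp2. Rpl37a (0.91, SE 0.15), Rps21 (0.66, SE 0.12) and Rps28 (0.63, SE 0.12) had the largest differences and were those past both cutoffs, where 13.9% of all genes were so upward. For Rpl3 (0.01), Rpl4 (-0.03) and Rps6 (-0.09) no difference was detected, with standard errors of 0.09, 0.09 and 0.14. The number past both cutoffs moved from 3 to 1 without 4-OHT day 10 replicate 2 or EtOH day 10 replicate 1, to 5 without 4-OHT day 10 replicate 3 or EtOH day 3 replicate 3, to 6 without EtOH day 10 replicate 2 or 3, to 7 without 4-OHT day 3 replicate 1, and to 10 without 4-OHT day 10 replicate 1.

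The controls changed over the same days. The count columns of day 10 carry another form of name than those of day 3, close to that of the Wnt3-CM columns. What the form stands for is not given, so that it and the day cannot be told apart, in the controls or in the responses. In EtOH libraries, 22 core genes were higher and 37 lower at day 10 than at day 3 (33.5% and 33.7% of all genes), with 5 higher and 21 lower past both cutoffs (16% and 22.4% of all genes) and a median of -0.27. Rps26 was 1947, 1787 and 1767 CPM at day 3 and 452, 501 and 498 CPM at day 10 (log2 difference -1.92, SE 0.09). Rps28 (178, 180 and 179 to 47.8, 53.3 and 55.5 CPM; -1.78), Rpl28 (45.3, 42.7 and 40.3 to 12.2, 14.6 and 17.5 CPM; -1.54) and Rplp1 (-1.16) also fell. Rpl13a (44.5, 39.6 and 46.7 to 87.8, 82.9 and 74.9 CPM; 0.91), Rpl27 (6.75, 8.18 and 7.56 to 12.5, 14.2 and 13.3 CPM; 0.83) and Rps23 (0.74) rose, all without overlap between the days. Adding the copies' reads gave 20 core genes higher and 35 lower, 1 and 13 of them past both cutoffs, with a median of -0.12, and of the low-sharing genes 6 were higher and 6 lower. Rps28 changed by -0.98 and Rps23 by 0.20, the latter no longer past the test, with the copies' reads. Rplp0 (0.31) and Rplp2 (0.39) were higher at day 10, in the opposite direction to their partner Rplp1. In the same libraries, all 10 proliferation markers (summed 1033 to 1105 CPM at day 3 and 1489 to 1533 CPM at day 10) and 6 of 7 Paneth cell markers (4272 to 4931 and 8410 to 8615 CPM) were higher at day 10, and the summed stem cell markers went from 1908 to 1924 CPM up to 3113 to 3360 CPM with 2 of 6 called higher and 2 lower. Enterocyte markers summed to 6964 to 7592 CPM at day 3 and 7701 to 9276 CPM at day 10 (3 of 10 higher, 1 lower), and epithelial ones to 9249 to 9883 and 8505 to 8870.0 CPM (2 of 9 higher, 4 lower). The mitochondrial share went from 3.92 to 5.39% at day 3 down to 1.496 to 1.601%. Their part was not tested. These EtOH libraries are also the controls of the responses at days 3 and 10.

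The D173A line gave the largest decrease of the within-line responses by the median (-0.49). A total of 64 core genes were lower and 1 higher after 4-OHT at day 7, where 13.7% of all genes were lower and 14.2% higher. Past both cutoffs 18 were lower and 1 higher (6.25% and 6.05% of all genes), and 31 were called without 4-OHT library c. All 16 low-sharing genes were lower with a median of -0.48, and with the copies' reads 72 core genes were lower with a median of -0.47. The groups did not overlap in 69 core genes that were lower, against 21.6% of all genes. The EtOH and 4-OHT libraries of this line also lay apart in Rps4l, a relative of Rps4x outside the rule, with 72.2 to 86.0 CPM after EtOH and 0.657 to 1.15 CPM after 4-OHT, and in 12 genes in all by over 20-fold. Whether they differ in more than the treatment was not tested, which bears on each value of this line.

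Rplp0 was 1794, 1673 and 1697 CPM after EtOH and 1181, 1121 and 1173 CPM after 4-OHT in the D173A line (-0.57, SE 0.06, edgeR adjusted p = 9.45e-05). Rps18, of the head of the small subunit, was 88.1, 84.2 and 87.6 against 46.8, 47.0 and 55.5 CPM (-0.80, SE 0.08, edgeR adjusted p = 5.45e-05), and Rps14, of its platform, was 518, 501 and 472 against 265, 297 and 302 CPM (-0.79, SE 0.07, edgeR adjusted p = 3.29e-05). Each of these decreases exceeded the spread within the groups. Rpl12, at the base of the stalk, changed by -0.78 (SE 0.12, edgeR adjusted p = 0.000799), where its copies held 96.3% of the reads of the gene with its copies. Rpl39 (-0.70), Rpl5 (-0.63), Rps6 (-0.56), Rpl11 (-0.55), Rpl3 (-0.55), Rpl22 (-0.49), Rpsa (-0.48), Rps4x (-0.44), Rplp2 (-0.43), Rpl36a (-0.43), Rpl7 (-0.33), Rpl10 (-0.32) and Rplp1 (-0.31) all passed the test, and Rps27a (-0.46) and Rps27 (-0.23) did not.

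The gene that was higher in the 4-OHT libraries of the D173A line was Rpl29, a protein of the surface of the large subunit. It was 199, 176 and 185 CPM after EtOH and 339, 336 and 323 CPM after 4-OHT, with a log2 fold change of 0.83 (SE 0.07, edgeR adjusted p = 1.38e-05; 0.79 with the copies' reads). Stem cell markers (6 of 6; summed 791 to 901 against 431 to 480 CPM), proliferation markers (7 of 10; 814 to 924 against 629 to 714 CPM) and Paneth cell markers (6 of 7; 3718 to 3908 against 1783 to 2108 CPM) were lower and 6 of 10 enterocyte markers higher (17765 to 19336 against 23926 to 27146 CPM) in the same libraries, and their part was not tested.

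The 4-OHT response at day 7 differed between the D173A line and the time course line, which is null for Cdk19, in 15 core genes, 13 more negative and 2 more positive in D173A, where 10.4% and 9.73% of all genes were so, 20.1% together. The count of 15 among 77 was thus near the share of all genes. The median difference was -0.14. With the number in the column names as a replicate block, 23 core genes (2 more positive, 21 more negative) and 30% of all genes were called. After adding the copies' reads 1 was more positive and 19 more negative, with a median of -0.25. Without D173A EtOH library b, or without 4-OHT day 7 replicate 2 of the time course line, 9 were called. The differences past both cutoffs were in Rpl29 (1.20, SE 0.15, edgeR adjusted p = 6.56e-05), Rpl27 (0.72, SE 0.18, edgeR adjusted p = 0.0109) and Rps14 (-0.75, SE 0.14, edgeR adjusted p = 0.0019), 2 upward and 1 downward where 4.9% and 6.25% of all genes were so. With D173A EtOH library a or 4-OHT library c left out, 6 passed both cutoffs, 2 upward and 4 downward, so that the larger number turned. It also turned with the copies' reads (1 upward, 2 downward). For Rpl29, the time course line went from 985, 801 and 1189 to 744, 759 and 788 CPM at day 7 (-0.38), the opposite direction to the D173A line. For Rps14, the time course line had 507, 401 and 554 against 494, 490.1 and 434 CPM (-0.04), with overlapping groups. The stalk base Rplp0 responded more strongly in D173A (-0.37, edgeR adjusted p = 0.0144), as did Rps18 (-0.47), Rps16 (-0.49) and Rpl39 (-0.54). For Rps6 (0.20, SE 0.19) and Rpl5 (0.10, SE 0.16) the difference did not pass the test. The lines were sequenced in separate tables with separate EtOH controls.

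In Wnt3-CM at day 10, 25 core genes were lower and 2 higher after 4-OHT, where 23.9% and 24.3% of all genes were so, and the median was -0.14. Without EtOH library c, or without 4-OHT library b, 14 were called in place of 27, and without the latter the median was -0.06. Of the low-sharing genes 7 of 16 were lower with a median of -0.16, and with the copies' reads 29 core genes were lower and 2 higher. Rpl12 was 23.9, 23.3 and 26.6 CPM after EtOH and 15.1, 17.8 and 18.4 CPM after 4-OHT (-0.52, SE 0.10, edgeR adjusted p = 0.000111). Rpl4 was 1557, 1641 and 1644 against 1296, 1226 and 1278 CPM (-0.35, edgeR adjusted p = 0.00026), and Rps6 was 16.8, 15.8 and 15.9 against 12.9, 12.4 and 11.9999 CPM (-0.38, edgeR adjusted p = 0.003). The groups lay apart in all 3 genes. The copies held 96.5% of the reads of Rpl12 with its copies and 98.0% for Rps6, against 5.90% for Rpl4. Rplp0 changed by -0.23 (edgeR adjusted p = 0.0126), Rplp2 by -0.29, Rpl3 by -0.22 and Rpl22 by -0.25, and Rplp1 (-0.02), Rpsa (-0.17), Rps4x (-0.15), Rpl7 (-0.14), Rpl39 (-0.17), Rpl5 (0.11) and Rpl11 (0.01) did not pass the test. Higher were Rps29 (1.37, 1.63 and 2.21 to 2.78, 2.62 and 2.42 CPM; 0.59, edgeR adjusted p = 0.0348), the one gene past both cutoffs (9.45% of all genes upward and 7.42% downward), and Rpl36a (0.35, edgeR adjusted p = 0.0476). With the copies' reads Rps29 stood at 0.04 and Rpl36a at -0.20, and without 4-OHT library a or b, or EtOH library a or b, no core gene passed both cutoffs. All 7 Paneth cell markers were lower (summed 7591 to 8504 against 2207 to 2655 CPM) and 7 of 10 proliferation markers higher (summed 848 to 877 against 916 to 1052 CPM). Epithelial markers were lower in 8 of 9 and higher in 1 (13706 to 14229 against 10629 to 11463 CPM). Enterocyte markers were higher in 7 of 10 and lower in 2, with overlapping sums (7722 to 9281 against 8736 to 9618 CPM). The mitochondrial share was 1.45 to 1.56% after EtOH and 1.61 to 2.43% after 4-OHT. The part of either was not tested.

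The 4-OHT response at day 10 differed between Wnt3-CM and standard medium in 5 core genes, and none of these passed the fold cutoff. Rpl19 (-0.52, SE 0.12, edgeR adjusted p = 0.00299), Rps16 (-0.42) and Rpl35 (-0.34) were more negative in Wnt3-CM (14.9% of all genes) and Rpl5 (0.43, edgeR adjusted p = 0.0475) and Rpl6 (0.27) more positive (14.1% of all genes). Together 29% of all genes differed, a larger share than the 5 of 76 core genes. The median difference was -0.04, between -0.07 and 0.03 when single libraries were left out. It turned positive without Wnt3-CM 4-OHT library b or 4-OHT replicate 2 of the standard medium. With the number in the column names as a replicate block, 13 core genes (4 more positive, 9 more negative) and 36.9% of all genes were called. With the copies' reads 3 were called, 2 more positive and 1 more negative, and Rps16 stood at -0.03 and Rpl5 at -0.05. Between 2 and 6 core genes were called when single libraries were left out; 3 were called without Wnt3-CM EtOH library a, b or c, Wnt3-CM 4-OHT library c, EtOH replicate 1 or 3 or 4-OHT replicate 2 of the standard medium, 2 without its EtOH replicate 2, and 6 without Wnt3-CM 4-OHT library b. Without 4-OHT replicate 3 of the standard medium, 1 core gene passed both cutoffs. The libraries of the 2 media lie in separate tables with separate EtOH controls, so that medium and table cannot be told apart.

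**Figure D4:**
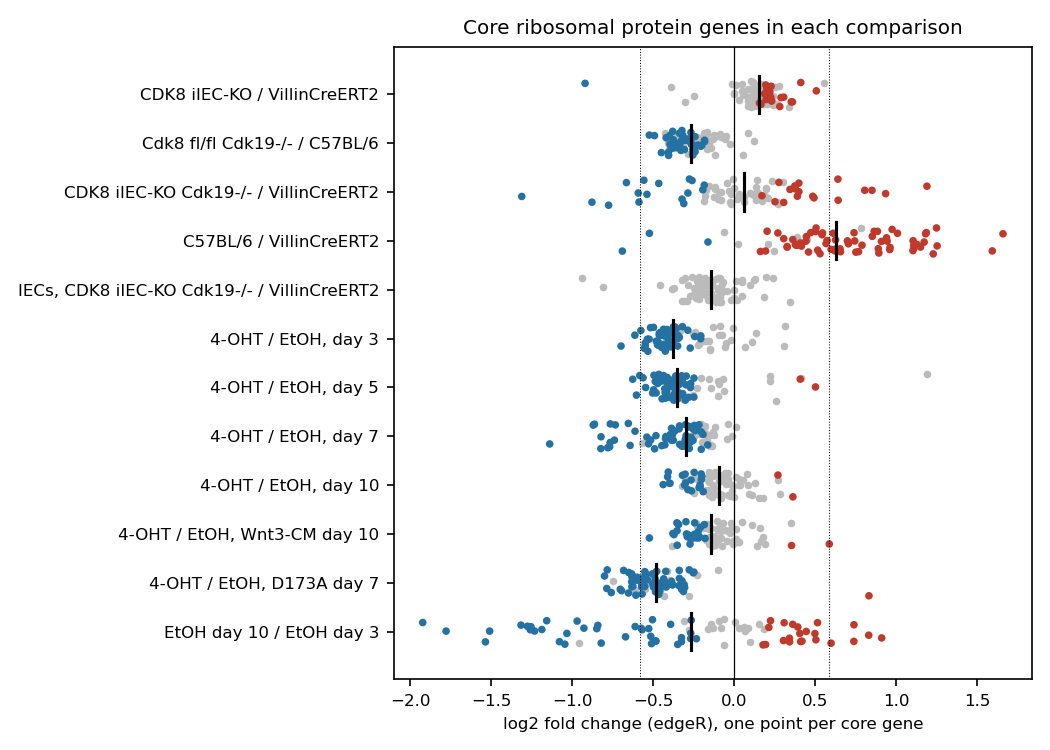
Log2 fold change (x axis) of each core ribosomal protein gene in 12 comparisons (y axis), blue for lower and red for higher at an adjusted p under 0.05 (edgeR), grey for not called. Black ticks mark the median of the core genes and dotted lines a fold of 1.5. The medians lie at -0.38, -0.36, -0.30 and -0.10 at days 3, 5, 7 and 10 and at -0.49 in the D173A line, and C57BL/6 against VillinCreERT2 lies highest, at 0.62.

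Across the 6 within-line responses, a core gene could be lower from 0 to 6 times, where those of days 3 to 10 come from one line and Wnt3-CM from the same genotype. Lower calls were made in all 6 for 4 genes (Rpl3, Rpl4, Rpl14 and Rps2), in 5 for 24 genes, and in 0 for 4 genes (Rpl24, Rpl37, Rps27 and Rps29). Of the 13418 genes of any kind tested in all 6 responses, 0.619% were lower in all 6, 2.88% in 5 and 37.3% in 0. Rpl14 and Rps2, like Rpl4 as one of this set, were chosen after their values were seen. At days 3, 5 and 7 together 35 genes were lower, and 34 of these were lower in D173A too, beside 2.71% and 1.34% of all genes. Rpl14 changed by -0.46, -0.41, -0.49 and -0.25 at days 3, 5, 7 and 10, by -0.35 in Wnt3-CM and by -0.43 in the D173A line. Rps2, of the mRNA entry of the small subunit, changed by -0.21, -0.58, -0.53, -0.40, -0.18 and -0.38 in the same order. A gene called higher in at least one response was found 7 times (Rpl10, Rpl19, Rpl29, Rpl36a, Rpl37a, Rps10 and Rps29), where 58.3% of all genes were called higher at least once.

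Which genes led within the group depended on the reads counted. With the reads of the genes alone, across the 77 genes, which share libraries, depth and copies and are given as a description, Pearson's r of the log2 fold changes was 0.46 between days 3 and 5, -0.58 between days 3 and 7, -0.11 between days 5 and 7, and 0.37 between days 7 and 10. Between day 7 in the time course line and the D173A line it was 0.03. When the copies' reads were added, these values were 0.31, -0.23, 0.18, 0.36 and -0.09. In the 16 low-sharing genes they were -0.03, 0.20, -0.08, 0.07 and -0.41. The negative value between days 3 and 7 was thus smaller with the copies' reads and not present in the low-sharing genes.

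**Figure D5:**
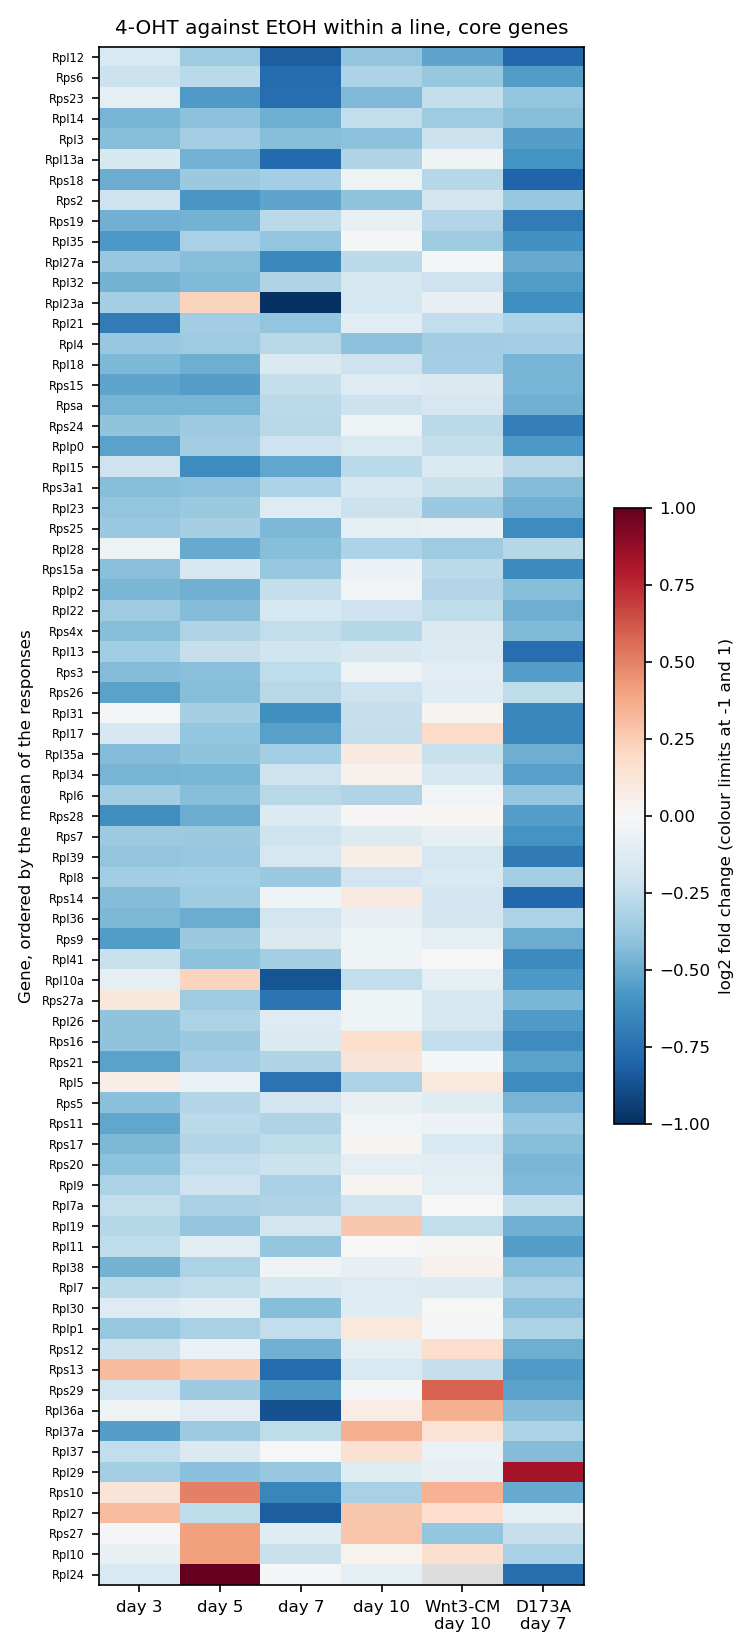
Log2 fold change after 4-OHT (colour, limited to -1 to 1) of 75 of the 77 core genes (rows, ordered by their mean) in the 6 within-line responses (columns); grey marks Rpl24, which was not tested in Wnt3-CM. Most cells are blue (lower), the columns of day 10 and Wnt3-CM are palest, and the rows that are darkest at day 7 are not those at day 3, by the reads of the genes alone.

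Between the lines read at day 7 after 4-OHT, CDK8 iIEC-KO organoids had slightly higher values than VillinCreERT2 organoids. Of 77 core genes 20 were higher and 1 lower, where 15.7% and 14.6% of all genes were so, and the median was 0.15. Of the low-sharing genes 6 of 16 were higher, and with the copies' reads 25 core genes were higher and 1 lower. The count of 21 was 11 without CDK8 iIEC-KO replicate 1 or 3 and 12 without VillinCreERT2 replicate 2. Rpl11 (8.64, 9.40 and 8.65 to 12.6, 13.0 and 9.84 CPM; 0.41, edgeR adjusted p = 0.0134), Rps2 (377, 364 and 380.0 to 513, 461 and 462 CPM; 0.36), Rpl22 (0.31), Rplp2 (0.28) and Rplp0 (0.16) were higher. Rpl29 again stood out: it was 348, 359 and 364 CPM in VillinCreERT2 and 193, 183 and 190 CPM in CDK8 iIEC-KO organoids (-0.92, SE 0.07, edgeR adjusted p = 4.79e-10), the only core gene past both cutoffs (4.34% of all genes downward and 2.9% upward), and 2 genes passed without VillinCreERT2 replicate 1. In CDK8 iIEC-KO/Cdk19-/- organoids it was 370, 379 and 336 CPM, level with VillinCreERT2 (0.02, edgeR adjusted p = 0.845). In CDK8 iIEC-KO against VillinCreERT2 organoids, 9 of 10 proliferation markers were higher (summed 1430.2 to 1549 against 1131 to 1217 CPM) and 7 of 10 enterocyte markers lower (11133 to 12824 against 15889 to 19151 CPM), the summed Paneth cell markers were 2470.4 to 2685 against 2837 to 2967 CPM and the epithelial ones 7155 to 7390.2 against 7445 to 8589 CPM, and their part was not tested.

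The direction of the group differed with the control line. The count columns of VillinCreERT2 and CDK8 iIEC-KO share a form of name, and those of C57BL/6, Cdk19-/- and CDK8 iIEC-KO/Cdk19-/- share another. What the form stands for is not given, so that it and the control line cannot be told apart. C57BL/6 organoids, which carry no Cre, had higher values than VillinCreERT2 organoids in 67 core genes and lower ones in 3 (31.2% and 30.1% of all genes), with a median of 0.62 and 41 genes higher past both cutoffs (15.5% of all genes). Of the low-sharing genes 15 were higher and 1 lower, and with the copies' reads 66 core genes were higher and 3 lower. Rps16 was 15.5, 14.2 and 14.9 CPM in VillinCreERT2 and 42.7, 45.5 and 52.7 CPM in C57BL/6 organoids (1.66, SE 0.10), and stood at 1.00 with the copies' reads. Rpl21 was 172.998, 179 and 171 against 330, 394 and 520 CPM (1.25), and Rplp2 was lower (109, 106 and 107 against 57.5, 68.0 and 73.9 CPM; -0.69). Set against the mean of the VillinCreERT2 and C57BL/6 groups, CDK8 iIEC-KO organoids had 33 core genes lower and 3 higher (median -0.16), where 15.6% of all genes were lower and 20.3% higher. By the same measure CDK8 iIEC-KO/Cdk19-/- organoids had 47 lower and 2 higher (median -0.29), where 22.7% and 22.8% of all genes were so. Markers also differed between the control lines: all 10 proliferation markers (summed 1461 to 1536 CPM in C57BL/6 against 1131 to 1217 CPM in VillinCreERT2) and all 7 Paneth cell markers (5083 to 6305 against 2837 to 2967 CPM) were higher in C57BL/6. Of the enterocyte markers 5 of 10 were lower and 2 higher there (14128 to 14967 against 15889 to 19151 CPM), and the mitochondrial share was 6.42 to 6.57% against 3.67 to 5.13%. Their part was not tested.

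Against C57BL/6, Cdk19-/- organoids had 45 core genes lower and 0 higher (7.8% and 7.66% of all genes), with a median of -0.27, 13 of 16 low-sharing genes lower, and 62 lower with the copies' reads. The count was 21 without C57BL/6 replicate 3, with a median of -0.16, and 25 without Cdk19-/- replicate 1. Rpl37 (25.01, 30.6 and 37.9 to 19.0, 24.3 and 21.9 CPM; -0.52), Rpl26 (306, 333 and 389 to 236, 246 and 248 CPM; -0.49, SE 0.07) and Rps20 (265, 319 and 303 to 225, 194 and 230.1 CPM; -0.45) fell most, and in none did the groups overlap. Rplp0 (-0.29), Rpl29 (-0.38) and Rpl4 (-0.18) also passed the test. No core gene passed both cutoffs with all libraries (2.86% of all genes upward and 2.39% downward), and 1 did so without C57BL/6 replicate 1 or Cdk19-/- replicate 2. C57BL/6 replicate 3 had the highest core share of its group (3.06%, beside 2.44% and 2.68%). Stem cell markers were lower in 4 of 6 (summed 782 to 928 against 1260.3 to 1320.4 CPM) and Paneth cell markers in 3 of 7 (4051 to 4440.3 against 5083 to 6305 CPM) in Cdk19-/- organoids, and epithelial markers were higher in 3 of 9 (8334 to 8734 against 7604 to 7997 CPM). The summed proliferation markers were 1403 to 1444 against 1461 to 1536 CPM with none called, and the enterocyte ones 15314 to 17993 against 14128 to 14967 CPM. The part of these markers was not tested.

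Against VillinCreERT2, CDK8 iIEC-KO/Cdk19-/- organoids had 18 core genes higher and 16 lower, where 25.8% and 27.1% of all genes were so, with a median of 0.06 and 6 genes past both cutoffs each way (11.5% of all genes higher, 7.95% lower). The share of called core genes was therefore no larger than that of all genes. The balance turned with the copies' reads added: 14 were higher and 18 lower, 0 and 5 of them past both cutoffs, and the median was -0.0073. Of the low-sharing genes 3 were higher and 4 lower. Rplp2 was 109, 106 and 107 CPM in VillinCreERT2 and 43.9, 42.6 and 43.2 CPM in CDK8 iIEC-KO/Cdk19-/- organoids (-1.31, SE 0.07), Rps2 was 377, 364 and 380.0 against 209, 203 and 197 CPM (-0.88, SE 0.06), and Rps7 was 57.3, 55.5 and 53.0 against 32.7, 30.9 and 33.2 CPM (-0.78, SE 0.07). The groups lay far apart in all 3. Rpl24 (1.19, SE 0.33, at most 1.22 CPM in every library of the 5 lines), Rps29 (0.93), Rps16 (0.85) and Rpl11 (0.64) were higher. With the copies' reads Rps2 stood at -0.31, Rps7 at 0.04, Rps16 at 0.29, Rps29 at -0.50 and Rpl24 at 0.25. Without VillinCreERT2 replicate 2, 32 core genes were called and those that were lower outnumbered those that were higher. The median was 0.10 without CDK8 iIEC-KO/Cdk19-/- replicate 1 and 0.04 without replicate 3. Stem cell markers were lower in 5 of 6 (summed 429.8 to 585 against 1190.4 to 1421 CPM) and Paneth cell markers in 5 of 7 (938 to 987 against 2837 to 2967 CPM). Of the enterocyte markers 7 of 10 were higher, with overlapping sums (17682 to 18942 against 15889 to 19151 CPM), and the mitochondrial share was 5.96 to 6.23% against 3.67 to 5.13%. Their part was not tested. The comparisons with VillinCreERT2 share its libraries, and those with C57BL/6 share theirs. Rplp2 was 57.5 to 73.9 CPM in C57BL/6, 52.0 to 60.8 CPM in Cdk19-/- and 122 to 137 CPM in CDK8 iIEC-KO organoids. In the same order Rps16 was 42.7 to 52.7, 35.7 to 38.1 and 16.3 to 18.9 CPM, and Rps29 was 5.80 to 6.34, 5.82 to 6.99 and 1.92 to 2.46 CPM. Rplp2, Rps16 and Rps29 thus differed by the form of the column names, and Rps2 (590 to 638, 500 to 535 and 461 to 513 CPM) did not.

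In IECs, no ribosomal protein gene was called between CDK8 iIEC-KO/Cdk19-/- and VillinCreERT2 mice by edgeR, with 75 core genes tested, 3 at an unadjusted p under 0.05 (19.9% of all genes) and a median of -0.14 (1.54% of all genes were called, 0.659% higher and 0.883% lower, and 1.5% past both cutoffs, 0.646% higher and 0.856% lower). By DESeq2, 1 core gene was lower, and with the copies' reads 0 were called by edgeR. Rplp0 was 764, 958 and 915 CPM in VillinCreERT2 and 838, 583 and 734 CPM in CDK8 iIEC-KO/Cdk19-/- mice (-0.29, SE 0.16, edgeR adjusted p = 0.358), and Rpl4 was 625, 682 and 691 against 617, 539 and 563 CPM (-0.22, SE 0.10, edgeR adjusted p = 0.289). Without replicate 1 of the CDK8 iIEC-KO/Cdk19-/- mice, still 0 were called, 20 had an unadjusted p under 0.05 (15.0% of all genes), the median was -0.27 and 68 of 75 values were negative (49.1% of all genes). Without replicate 2, still 0 were called, 2 had an unadjusted p under 0.05 (27.9% of all genes), the median was -0.02 and 39 of 75 were negative (48.9% of all genes). Calls over all genes moved as well, from 234 of 15182 with all libraries to 42 of 15380 without replicate 1 and 727 of 15493 without replicate 2. The median was -0.21 and -0.09 without VillinCreERT2 replicates 1 and 2. Rps2 went from -0.94 to -0.38, Rps18 from -0.81 to -0.32 and Rpl29 from -0.32 to 0.25 when replicate 1 was left out. Summed stem cell markers were 751 to 1049 CPM in VillinCreERT2 and 315 to 518 CPM in CDK8 iIEC-KO/Cdk19-/- mice, those of Paneth cells 3738 to 6199.9 and 1012 to 2059 CPM, those of proliferation 399 to 498 and 239 to 396 CPM, and those of epithelium 12292 to 12816 and 10597 to 11765 CPM. Their part was not tested.

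Of the paralogs, Rpl7l1, Rpl22l1 and Rps27l were detected well enough to test. At day 3, when Rpl22 and Rpl7 fell, Rpl22l1 (9.51, 9.62 and 8.25 against 8.25, 8.73 and 7.65 CPM; -0.15), Rpl7l1 (-0.13) and Rps27l (0.03) did not pass the test. Rpl7l1 (-0.28) and Rps27l (-0.35) fell at day 5, and all 3 fell at day 7, with Rpl22l1 at -0.55 (edgeR adjusted p = 0.00155), Rpl7l1 at -0.35 and Rps27l at -0.29. At day 10, Rps27l, a target of p53, was higher (65.5, 77.5 and 80.2 to 81.6, 100.2 and 87.4 CPM; 0.27, edgeR adjusted p = 0.04). In Wnt3-CM it was lower (80.5, 84.1 and 83.0 to 76.7, 63.0 and 74.3 CPM; -0.21, edgeR adjusted p = 0.025), and in the D173A line none of the 3 passed the test. In EtOH libraries all 3 were higher at day 10 than at day 3, by 0.95 for Rpl22l1, 0.80 for Rpl7l1 and 0.78 for Rps27l. In CDK8 iIEC-KO/Cdk19-/- against VillinCreERT2 organoids all 3 were lower (-0.41, -0.32 and -0.48).

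Rps4l, an intronless relative of the X-linked Rps4x, is annotated as a transcribed processed pseudogene and so lies outside the rule. It was 86.0, 72.2 and 75.7 CPM after EtOH in the D173A line and 0.657, 1.13 and 1.15 CPM after 4-OHT (-6.31, edgeR adjusted p = 6.98e-09), while Rps4x changed by -0.44. In the other lines Rps4l ranged from 13.4 to 20.6 CPM in VillinCreERT2, 17.7 to 22.9 CPM in CDK8 iIEC-KO, 7.36 to 8.73 CPM in Cdk19-/- organoids and 10.2 to 11.01 CPM in the line lacking both. At most 1 read per library was counted in C57BL/6, the time course and Wnt3-CM. In IECs Rps4l was 41.9, 50.7 and 42.9 CPM in VillinCreERT2 and 8.59, 27.8 and 42.3 CPM in CDK8 iIEC-KO/Cdk19-/- mice, lowest in replicate 1 of the latter. Rps4l differed between lines and also between the EtOH and 4-OHT libraries of the D173A line, and the cause was not tested. In that line 12 genes differed over 20-fold, 8 higher and 4 lower, of which 4 lie on chromosome 6, against 3 (1 higher, 2 lower) at day 3, 1 at day 5, 0 at day 7 and 0 at day 10 of the time course and 4 (2 each way) in Wnt3-CM, none of these on chromosome 6. 

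Genes of the ribosome that the naming pattern misses followed the core in part. Rack1, a scaffold on the head of the small subunit, was 2078, 1956 and 1859 CPM after EtOH and 1460, 1433 and 1409 CPM after 4-OHT at day 3 (-0.45, edgeR adjusted p = 5.12e-06). It changed by -0.36, -0.28 and -0.15 at days 5, 7 and 10, by -0.25 in Wnt3-CM and by -0.52 in the D173A line, and only the value of day 10 missed the test (edgeR adjusted p = 0.0788). Fau, a fusion of a ubiquitin-like protein with a 40S protein, changed by -0.38 at day 3 and by 0.33 at day 10, both past the test.

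Other parts of the translation machinery were described with lists set beside the members. Of elongation factors and other mRNAs with terminal pyrimidine tracts, 15 of 21 tested were lower at day 3, 17 at day 5, 12 at day 7, 16 at day 10 and 12 in Wnt3-CM, and 17 of 22 in the D173A line. Eef1b2 (-0.59) and Eef1a1 (-0.54) led at day 3, Eef1g at day 5 (-0.53), and Nap1l1 (-0.98) and Eef1g (-0.87) in the D173A line. Ribosome biogenesis factors were mostly called from day 5 on: of 80, 11 were lower and 8 higher at day 3, but 70 were lower at day 5 and 70 at day 7, 61 at day 10, 48 in Wnt3-CM and 26 in the D173A line. Gnl3 (-1.23) and Rrp1b (-1.22), both nucleolar, led at day 7, Mdn1, an AAA protein of 60S maturation, at day 5 (-0.84), Rrp1b (-1.03) and Mdn1 (-0.99) at day 10, and Ddx21 in Wnt3-CM (-0.74). The background at these times is that given above for all genes. Against VillinCreERT2, 60 of 80 biogenesis factors were lower in CDK8 iIEC-KO/Cdk19-/- organoids and 42 were higher in CDK8 iIEC-KO organoids. The shares of all genes in these comparisons are those given above for the lines, where the direction of the core genes differed with the control line.

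The medians of the ribosomal proteins and of the factors that assemble them ran differently over the days, which was not tested. At day 3 the median was -0.38 for the first and -0.03 for the second, at day 7 -0.30 and -0.58, and at day 10 -0.10 and -0.35. In the D173A line the medians were -0.49 and -0.12, and 45 of 80 biogenesis factors responded less negatively there than in the time course line at day 7, beside 2 of 77 core genes and 9.73% of all genes. RNA polymerase I genes, which serve rRNA synthesis, were lower in 4 of 15 at day 3 (18.8% of all genes), 10 at day 5 (19.9%), 11 at day 7 (22.5%), 8 at day 10 (21.2%) and 5 in the D173A line (13.7%), with Polr1b at -0.90 at day 7. Myc changed by -0.73 at day 5, -0.91 at day 7, -1.13 at day 10 and -0.74 in the D173A line. Mitochondrial ribosomal protein genes, a list added after the data were seen, were lower in 23 of 74 at day 3, 60 at day 5 and 49 at day 7, beside the same shares of all genes. At day 10 they were lower in 4 and higher in 23, beside 21.2% and 23.1% of all genes.

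Promoter windows show in capitals the longest pyrimidine run that reaches within 5 bases of the annotated start, from RefSeq on GRCm38.p6. They are of a gene that was lower in all responses (Rpl14), a gene that was lower in 5 of 6 (Rps6), and genes of the stalk and the 5S particle (Rplp0, Rpl5).
Rpl14 (chr9:120571507-120571536, plus strand): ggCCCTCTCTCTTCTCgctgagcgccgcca
Rps6 (chr4:86857348-86857377, minus strand): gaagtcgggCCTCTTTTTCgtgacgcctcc
Rplp0 (chr5:115559457-115559486, plus strand): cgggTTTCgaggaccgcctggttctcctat
Rpl5 (chr5:107900518-107900547, plus strand): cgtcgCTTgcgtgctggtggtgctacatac
The runs were 14 bases long in Rpl14, 10 in Rps6, 4 in Rplp0 and 3 in Rpl5. In Rplp0 and Rpl5 the run ends before the annotated start, and whether these cells use that start was not tested. Among 67 promoters of 57 core genes that matched, 22 (32.8%) had a run of at least 8 pyrimidines within 5 bases of the start, against 9.72% of 32851 promoters. The letters CCGGAAG, which ETS factors can bind, were found on either strand in 37.3% of the core promoters and 8.86% of all. CACGTG, the E-box that MYC can bind, was found in 11.9% against 7.15%. A match describes letters in the window of 250 bases before to 50 after the start and shows no binding.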

How the data were processed

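Total RNA was sequenced as 100 base paired-end libraries. The authors deposited unnormalized counts per gene (featureCounts of Subread 1.6.3 after STAR 2.5.2, mm10, as the submitters' processing notes list). The handling of strand and of reads with several placements, and the annotation release, are not given in the sources used here. Gene models were taken from GENCODE vM21, which held 54723 of the 54752 gene IDs.

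Counts were tested with edgeR 4.0.16 (filterByExpr, TMM, robust quasi-likelihood F test) in R 4.3.3, with 1 fit for each table and joint fits for differences between responses. DESeq2 1.42.0, limma 3.58.1, other filters and scalings, added copies and leaving out single libraries were tried as alternatives. Scripts were tested on simulated data. Tested genes numbered 15447 in the time course, 13745 in Wnt3-CM, 15457 in the D173A line, 15125 in the 5 lines and 15182 in IECs. D173A columns were taken as EtOH or 4-OHT by a letter in their names that marks these in the other columns. The numbers that end the Wnt3-CM and D173A column names were not tied to the labels' replicates, but same-numbered libraries deviated together there (r of 0.14 to 0.27 and 0.15 to 0.49 over 3 pairs each), and a fit with this number as a block was added. IEC libraries of the D173A genotype and their 6 columns were not analysed here.

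The members and lists were chosen with earlier results of these data known. Named were, per comparison, the 3 core genes with the largest rise and fall past both cutoffs (past the adjusted p alone where none passed both), a fixed set of 16 core genes by role, the paralogs, Fau and Rack1, and the 2 largest rises and falls of each list. A few named items are not reported here. Depth of 15485959 to 32909565 counts per library limits genes of few counts. Of the core genes, 8 averaged under 100 counts in the time course and 18 in IECs.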

Additional observations from a re-analysis of the deposited data

Results flagged for a closer look

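The results below were picked out because the response to 4-OHT differed between days, media or lines in a test of the difference itself (edgeR, adjusted over all genes tested). At day 10, 34 core genes responded less negatively than at day 3, where 23.7% of all genes did so, with Rpl37a at 0.91, Rps21 at 0.66 and Rps28 at 0.63 on the log2 scale. In Wnt3-CM, 5 of 76 core genes responded differently than in standard medium, a smaller share than the 29% of all genes. In the D173A line, 15 of 77 core genes responded differently than in the time course line at day 7, near the 20.1% of all genes that did so, among them Rpl29 (1.20), Rpl27 (0.72) and Rps14 (-0.75). The EtOH and 4-OHT libraries of the D173A line also lay apart in Rps4l (72.2 to 86.0 against 0.657 to 1.15 CPM), and whether they differ in more than the treatment was not tested. Each of these differences also lies between separate tables or forms of column name. No explanation of these differences was tested.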

How the results depend on the processing

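With DESeq2, 0 core genes passed both cutoffs in Wnt3-CM, and in IECs 1 gene passed the adjusted p. With at least 10 counts in every library, 1 passed both at day 5, and with no filter on low counts 0 in Wnt3-CM. Upper quartile scaling gave 29 in the D173A line (1 higher, 28 lower), 1 at day 3, and 4 genes past the adjusted p for Wnt3-CM against standard medium (3 higher, 1 lower). With the reads of rows named as copies, both cutoffs were passed by 3 genes for D173A against the time course line (1 higher, 2 lower), 0 in Wnt3-CM and 6 at day 7, and the adjusted p by 4 for Wnt3-CM against standard medium. Reversed values were Rpl36a in Wnt3-CM (-0.18), Rpl19 at day 10 (-0.032) and, for EtOH day 10 against day 3, Rpl3 (0.026) and Rpl36a (-0.083). With all rows that share sequence, an alternative chosen after the data were seen, both cutoffs were passed by 3 genes for D173A against the time course line, 1 for day 10 against day 3 responses, 0 in Wnt3-CM, 0 at day 5, 0 at day 7, 5 for CDK8 iIEC-KO/Cdk19-/- (0 higher, 5 lower) and 14 for EtOH day 10 against day 3 (1 higher, 13 lower), and the adjusted p by 3 for Wnt3-CM against standard medium (2 higher, 1 lower) and 32 for CDK8 iIEC-KO/Cdk19-/- (14 higher, 18 lower). Reversed there were Rpl5 in the Wnt3-CM difference (-0.050), Rpl36a in Wnt3-CM (-0.20), Rpl19 at day 10 (-0.036), Rps29 (-0.50) and Rps7 (0.040) in CDK8 iIEC-KO/Cdk19-/- organoids, and Rpl36a (-0.12) and Rps4x (-0.058) for EtOH day 10 against day 3. The adding of reads from other rows is the construction of both alternatives. With the mean of both controls, 5 (1 higher, 4 lower) and 7 (1 higher, 6 lower) genes passed both cutoffs and 36 (3 higher, 33 lower) and 49 (2 higher, 47 lower) the adjusted p, the first number being for CDK8 iIEC-KO and the second for CDK8 iIEC-KO/Cdk19-/-. The first median was -0.16, and Rpl11 (-0.060), Rpl22 (-0.023), Rplp0 (-0.16), Rps4x (-0.17) and Rpsa (-0.21) were reversed in the first, Rps4l (3.96) and Rps4x (-0.21) in the second. With only the groups compared, 32 passed the adjusted p for CDK8 iIEC-KO. Outside mitochondrial counts the core share was 1.78% (D173A EtOH), 2.34% (Cdk19-/-), 2.03% (CDK8 iIEC-KO), 1.79% (CDK8 iIEC-KO/Cdk19-/-), 1.74% (VillinCreERT2), 2.70% and 2.12% (4-OHT days 3 and 5) and 3.33% (EtOH day 3). The cause of the other moves was not tested. With limma-voom and TMM without ribosomal protein genes, counts of core genes stayed within 1.5 times.

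Leaving out 1 library at a time (81 refits), genes past both cutoffs ranged over 1 to 5 at day 3, 3 to 6 at day 5, 12 to 18 at day 7, 0 to 0 at day 10, 0 to 1 in Wnt3-CM, 14 to 31 in D173A, 25 to 28 for EtOH day 10 against day 3, 1 to 10 for day 10 against day 3 responses, 0 to 1 for the Wnt3-CM and 3 to 6 for the D173A difference, 1 to 2 for CDK8 iIEC-KO, 0 to 1 for Cdk19-/-, 10 to 13 for CDK8 iIEC-KO/Cdk19-/-, 34 to 49 for C57BL/6 and 0 to 0 for IECs. Genes past the adjusted p ranged, in the same order, over 47 to 51, 51 to 58, 46 to 60, 13 to 26, 14 to 30, 54 to 68, 55 to 58, 27 to 38, 2 to 6, 9 to 22, 11 to 20, 21 to 57, 29 to 34, 65 to 69 and 0 to 0. The predominant direction turned for both cutoffs in the D173A difference (6 genes), for the adjusted p in the Wnt3-CM difference (6 or 3 genes) and for CDK8 iIEC-KO/Cdk19-/- (32 genes).

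The replicate numbers were fitted as a block as a further alternative. With the replicate block of the labels' numbers, 22 of 22 counts stayed within 1.5 times, and 1 of 171 single values was weakened. In none of these comparisons did all 3 pairs of same-numbered libraries deviate together (r over 0.1, range -0.39 to 0.42). At day 10 the values were 0.42, 0.22 and 0.09, so that this rule cannot decide whether libraries were paired. In Wnt3-CM and the D173A line, a replicate block by the number in the column names was added after the data were seen. It gave 13 core genes past the adjusted p for Wnt3-CM against standard medium (4 higher, 9 lower) and 23 for D173A against the time course line (2 higher, 21 lower), kept the other 6 counts within 1.5 times and changed no other call. Depth limits genes of few counts such as Rpl24 and Rpl23a.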
